A study of Mus musculus with 13 samples.

Results

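The phagocyte NADPH oxidase was followed here through the transcripts of 6 genes in the mouse brain. These were Cybb, Cyba, Ncf1, Ncf4, Rac2 and Hvcn1, picked by symbol from a list and found as 1 row each among 55401 genes in the deposited tables. The oxidase is a membrane enzyme of phagocytes. It takes electrons from NADPH in the cytosol, passes them across the membrane and gives them to oxygen, which makes superoxide in the phagosome or outside the cell. Cybb encodes NOX2, the catalytic subunit that carries the electrons, and Cyba encodes the small partner without which NOX2 is not stable. Both sit in the membrane. Ncf1 encodes the cytosolic organizer subunit and Ncf4 an adaptor that binds phosphoinositides on the phagosome. Rac2 is the GTPase that joins the assembled enzyme in blood-derived cells, and Hvcn1 encodes the proton channel that balances the charge the electrons carry out. In the brain the complex is best known from microglia, the resident phagocytes.

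The RNA came from the snap-frozen hemisphere of male wild-type C57BL/6J mice of the cuprizone model, in which the copper chelator cuprizone in the chow injures oligodendrocytes and myelin is lost. CPZ mice (n = 4) had 0.3% cuprizone for 4 weeks and were collected at week 4. RCV mice (n = 4) had 0.3% cuprizone for 4 weeks and normal chow for 2 weeks, and CTL mice (n = 5) had normal chow for 6 weeks. Both were collected at week 6, so CPZ mice were collected 2 weeks earlier in the schedule. The labels give an age of 6 to 8 weeks and the methods one of about 10 weeks, and all mice were perfused with saline. No transgene or other agent is named for any group, but "Veh" stands first in the title of each RCV sample, unexplained by the labels. Libraries were made from messenger RNA, and the authors deposited estimated counts and TPM values (transcript levels scaled to gene length and library size). Each library is taken as 1 mouse, and where the samples were not separate mice, p-values measure only the spread between these samples.

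The libraries held 4605100 to 8197289 counts, and the members gave few of them, so counting error adds to the spread between the mice. Counts were scaled to library size with the TMM correction (CPM), and 14985 genes passed a filter on low counts. All 6 members passed. Cybb had at least 10 counts in every CPZ and RCV library and in 0 of 5 CTL libraries, and Ncf4 in the 4 CPZ libraries alone, so both passed through the groups in which they were high. Fold changes and adjusted p-values are from edgeR's quasi-likelihood test over all 14985 genes in one fit of 13 libraries, and a gene was called at an adjusted p under 0.05. Markers of neurons and astrocytes were present in all libraries (6 of 6 genes each). In CPZ against CTL, 10 of 10 mature oligodendrocyte markers fell, where 374 of all 14985 genes tested were called lower. In bulk tissue, fewer cells of a type and less RNA per cell cannot be told apart.

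The genes lie apart in the genome (GRCm38, GENCODE M21). Cybb spans chrX:9435252-9487771 on the minus strand, Cyba chr8:122424776-122432930 on the minus strand and Ncf1 chr5:134220053-134229625 on the minus strand. Hvcn1 spans chr5:122206804-122242297 on the plus strand. Ncf4 at chr15:78244801-78262580 on the plus strand and Rac2 at chr15:78559167-78572783 on the minus strand share a chromosome. RefSeq promoter sequences (GRCm38.p6) were matched for 3 of the 6 members, Cybb, Cyba and Ncf1. They are shown because sequences were at hand for these 3 alone, and any part of them in the levels below was not tested. Each line holds the 250 bases before the start that RefSeq gives the gene, which for Cybb lies inside the span given by GENCODE, from 5′ to 3′ on the minus strand. Capitals mark GGAA, the core that PU.1 and other ETS factors bind, on either strand (TTCC where it lies on the other strand), and CCAAT, the CCAAT box, on either strand. The windows are chrX:9469325-9469574 for Cybb, chr8:122432941-122433190 for Cyba and chr5:134229626-134229875 for Ncf1.
Cybb: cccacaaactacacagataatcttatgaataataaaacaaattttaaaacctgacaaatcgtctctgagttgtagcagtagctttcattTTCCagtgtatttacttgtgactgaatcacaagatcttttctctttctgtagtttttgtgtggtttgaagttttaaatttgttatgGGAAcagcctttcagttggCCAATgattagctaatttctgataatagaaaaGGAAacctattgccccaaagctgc
Cyba: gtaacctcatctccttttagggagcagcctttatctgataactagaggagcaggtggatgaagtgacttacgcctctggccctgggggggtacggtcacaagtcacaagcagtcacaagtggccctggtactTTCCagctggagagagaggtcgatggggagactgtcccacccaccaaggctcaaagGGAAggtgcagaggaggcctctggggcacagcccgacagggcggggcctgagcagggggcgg
Ncf1: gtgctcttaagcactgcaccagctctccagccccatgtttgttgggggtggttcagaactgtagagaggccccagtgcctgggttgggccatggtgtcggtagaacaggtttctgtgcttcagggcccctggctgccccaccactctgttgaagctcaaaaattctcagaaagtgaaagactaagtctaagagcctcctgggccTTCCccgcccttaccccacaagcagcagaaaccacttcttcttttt
The Cybb window held 3 GGAA cores and the only CCAAT of the set, from -56 to -52 bases before the start. The Cyba window held 2 cores and the Ncf1 window 1. These short motifs are common. GGAA was found in 93.5% and CCAAT in 33.9% of 32851 RefSeq promoters, searched on both strands over the 250 bases before the start. The longer PU.1 core GAGGAA (23.3% of all promoters, overlapping GGAA) and the ETS-IRF composite, which is GGAA and GAAA with 2 bases between them (2.30%, also overlapping GGAA), matched in none of the 3 windows. The windows also differed in base composition, with 34% G or C for Cybb, 60% for Cyba and 54.4% for Ncf1. A match describes letters only.

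Among the membrane subunits, Cybb was close to absent in CTL brains. Cybb was at 0.136, 0.750, 0.154, 0.764 and 1.28 CPM in CTL replicates 1 to 5, at 9.51, 6.32, 9.71 and 5.94 CPM in CPZ replicates 1 to 4 and at 6.01, 7.78, 3.08 and 8.46 CPM in RCV replicates 1 to 4. All CPZ and all RCV libraries lay above all CTL libraries, while CPZ and RCV overlapped. The 5 CTL libraries together held 19 Cybb counts, against 234 in CPZ and 144 in RCV. Cybb rose 12.9-fold in CPZ against CTL (log2 3.69 ± 0.42, SE, adjusted p = 1.79e-05) and was still 10.4-fold higher in RCV than in CTL (log2 3.38 ± 0.44, adjusted p = 0.00254). Between CPZ and RCV the difference was 0.31 ± 0.33 on the log2 scale and was not called (adjusted p = 0.685). RCV replicate 3 was the lowest of the RCV libraries, and without it the log2 fold change of RCV against CTL stayed called, as it did without any other single library (3.10 to 3.77, adjusted p 0.00035 to 0.0134).

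Cyba, the partner of Cybb, took a different course after the return to normal chow. Cyba was at 2.58, 2.55, 3.54, 4.59 and 2.57 CPM in CTL, at 23.5, 23.1, 12.5 and 13.3 CPM in CPZ and at 5.42, 7.61, 5.0 and 6.72 CPM in RCV. The 3 groups did not overlap, and RCV lay between CTL and CPZ but nearer to CTL. Cyba rose 5.69-fold in CPZ against CTL (log2 2.51 ± 0.24, adjusted p = 3.51e-06) and was 2.92-fold higher in CPZ than in RCV (log2 1.55 ± 0.24, adjusted p = 0.00099). RCV against CTL gave a log2 difference of 0.96 ± 0.27 that was not called (adjusted p = 0.24). CPZ replicates 1 and 2 held more Cyba than replicates 3 and 4, which was not the order of Cybb, where replicates 1 and 3 were the higher.

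The cytosolic subunit Ncf1 had the highest CPM of the 6 genes. Ncf1 was at 5.30, 7.20, 4.46, 5.66 and 6.24 CPM in CTL, at 36.9, 36.5, 14.6 and 23.2 CPM in CPZ and at 10.4, 9.40, 7.89 and 7.81 CPM in RCV. Again the 3 groups did not overlap. Ncf1 rose 4.82-fold in CPZ against CTL (log2 2.27 ± 0.25, adjusted p = 1.92e-05) and was 3.10-fold higher in CPZ than in RCV (log2 1.63 ± 0.26, adjusted p = 0.00134), while RCV against CTL was at a log2 difference of 0.63 ± 0.28 (adjusted p = 0.741). Ncf1 shares 408 exonic bases (11.1% of its own) with Gtf2ird2 on the opposite strand. Whether the counting used strand is not given in the sources used here, and Gtf2ird2 itself was not called in any contrast (log2 -0.17 to 0.02).

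Ncf4 was the weakest and the least certain member. It was at 1.09, 1.35, 0.461, 0.612 and 0.550 CPM in CTL, at 1.58, 2.43, 1.39 and 2.84 CPM in CPZ and at 1.03, 1.30, 1.16 and 1.95 CPM in RCV. These values rest on 3 to 22 counts per library, and RCV overlapped with both CTL and CPZ. Ncf4 was called in CPZ against CTL (log2 1.31 ± 0.36, adjusted p = 0.0266), but the call was lost without CTL replicate 3, 4 or 5 or CPZ replicate 2 or 4 (adjusted p 0.0616 to 0.0989) and on TPM values (log2 0.72, adjusted p = 0.388 with limma on log2(TPM + 0.1)). Neither RCV against CTL (log2 0.68 ± 0.40, adjusted p = 0.904) nor CPZ against RCV (log2 0.63 ± 0.37, adjusted p = 0.378) was called.

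Rac2, the GTPase of the complex, was at 1.36, 3.15, 1.69, 1.38 and 1.83 CPM in CTL, at 18.7, 16.0, 6.10 and 11.2 CPM in CPZ and at 3.67, 5.67, 1.93 and 2.60 CPM in RCV. CPZ lay above both other groups, which overlapped, and CPZ replicate 3 was low. Rac2 rose 6.88-fold in CPZ against CTL (log2 2.78 ± 0.36, adjusted p = 9.1e-05) and was 3.67-fold higher in CPZ than in RCV (log2 1.87 ± 0.36, adjusted p = 0.0056). RCV against CTL gave a log2 difference of 0.91 ± 0.43 (adjusted p = 0.805). On the deposited TPM values neither rise was called (CPZ against CTL log2 1.32, adjusted p = 0.304, and CPZ against RCV log2 1.53, adjusted p = 0.292, limma on log2(TPM + 0.1)), and RCV against CTL was negative (log2 -0.22, adjusted p = 0.978). The TPM given per CPM of Rac2 ranged from 0.693 in CPZ replicate 3 to 7.79 in CTL replicate 3, an 11.2-fold spread that was larger than that of 99.9% of the genes compared. For Cyba the same spread was 1.09-fold and for Ncf1 1.19-fold.

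Hvcn1, the proton channel, was at 1.36, 3.30, 2.46, 3.21 and 2.93 CPM in CTL, at 24.8, 20.2, 13.5 and 14.2 CPM in CPZ and at 7.04, 9.23, 4.04 and 5.86 CPM in RCV. All RCV libraries lay above all CTL libraries and below all CPZ libraries. Hvcn1 rose 6.86-fold in CPZ against CTL (log2 2.78 ± 0.27, adjusted p = 4.42e-06) and was 2.73-fold higher in CPZ than in RCV (log2 1.45 ± 0.26, adjusted p = 0.0027). RCV against CTL (log2 1.33 ± 0.30) missed the threshold (adjusted p = 0.0884), but passed it with the DESeq2 Wald test (adjusted p = 0.00408), without RCV replicate 3 (adjusted p = 0.0433) and without CPZ replicate 1 (adjusted p = 0.0486). On TPM values CPZ against RCV was no longer called (log2 1.22, adjusted p = 0.147). Hvcn1 shares 1574 exonic bases (44.2% of its own) with Tctn1 on the opposite strand, and Tctn1 was not called in any contrast (log2 -0.11 to -0.01).

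**Figure D1:**
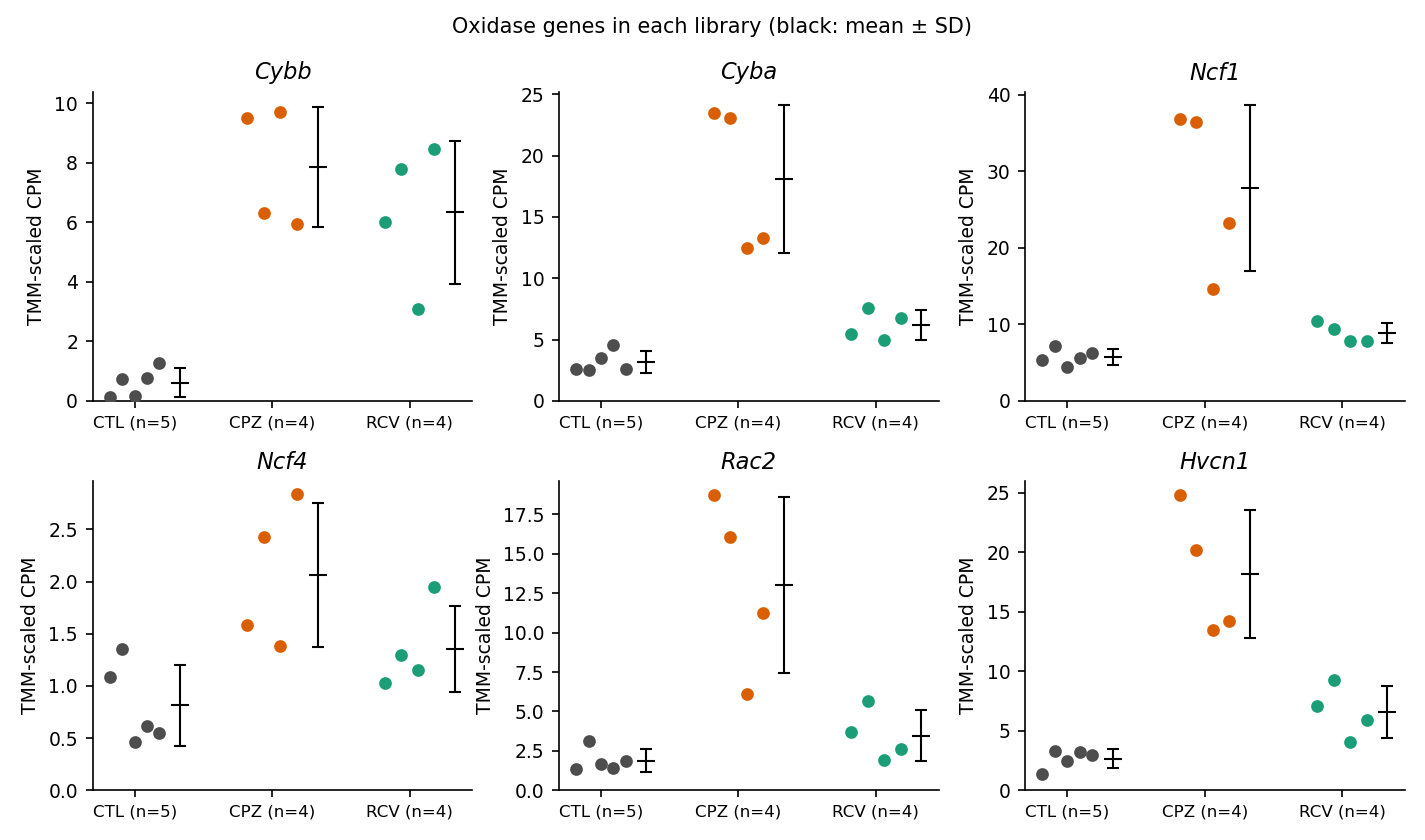
CPM of the 6 oxidase genes in each library by group, with 1 point per library in the order of the replicate numbers and the mean ± SD in black at the right of each group. The RCV libraries of Cybb (3.08 to 8.46 CPM) and of Ncf4 (1.03 to 1.95 CPM) overlap with CPZ (5.94 to 9.71 and 1.39 to 2.84 CPM), while Cyba, Ncf1, Rac2 and Hvcn1 lie lower in every RCV library than in every CPZ library.

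Counted over the complex, 6 of 6 members were higher in CPZ than in CTL by the test, where 7.66% of all genes tested were called higher. The median log2 fold change of the members was 2.64, against -0.02 over all genes tested. In RCV against CTL, 1 of 6 was called higher, Cybb, where the background was 0.360% (54 genes). Cybb had the seventh largest log2 fold change among the 56 genes called in either direction there. The member median was 0.94. In CPZ against RCV, 4 of 6 were called higher (background 5.13%), and the exceptions were Cybb and Ncf4. For 6 of 6 members every CPZ library was above every CTL library, as was the case for 8.25% of the genes tested. For Ncf4 the gap was narrow, with the lowest CPZ library at 1.39 CPM and the highest CTL library at 1.35 CPM. On TPM values the CPZ and CTL ranges of Ncf4 and of Rac2 overlapped. RCV lay wholly above CTL for 4 of 6 members, Cybb, Cyba, Ncf1 and Hvcn1 (background 2.21%), and CPZ wholly above RCV for 4 of 6, Cyba, Ncf1, Rac2 and Hvcn1 (background 8.26%). CPZ and RCV were compared with the same CTL libraries. Cybb and Ncf4 passed the filter through the groups in which they were high, so their part in these counts is not independent of the filter.

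Levels between genes were compared per length, on the TPM scale. In CTL the order of the mean TPM levels was Cyba (11.3 ± 3.15, SD, n = 5), Rac2 (6.26 ± 4.12), Ncf1 (4.65 ± 0.89), Hvcn1 (2.41 ± 1.22), Ncf4 (2.34 ± 1.25) and Cybb (0.274 ± 0.214). Ranges of neighbours overlapped from Cyba down to Ncf4, and only Cybb, at most 0.57 TPM, lay apart from its neighbour, at least 0.96 TPM. In CPZ the TPM level of Cyba was 63.7 ± 21.6 (SD, n = 4), above the ranges of all others, followed by Ncf1 at 22.7 ± 8.92, Rac2 at 17.1 ± 10.9 and Hvcn1 at 16.0 ± 6.13, whose ranges overlapped. Cybb at 4.11 ± 1.74 TPM and Ncf4 at 3.71 ± 1.34 TPM came last and overlapped. In RCV the TPM level of Cyba was 22 ± 4.35, of Ncf1 7.45 ± 1.03, of Hvcn1 6.88 ± 2.90, of Rac2 5.54 ± 2.84, of Cybb 3.38 ± 0.87 and of Ncf4 2.81 ± 1.13. Only Cyba was apart from its neighbour in that group. On TPM, Cybb therefore lay under Ncf4 in CTL and overlapped with it in CPZ and RCV. On CPM, which is not scaled to gene length, Cybb (0.136 to 1.28) and Ncf4 (0.461 to 1.35) overlapped in CTL too. The TPM given per CPM varied up to 2.83-fold between libraries for Ncf4 and 11.2-fold for Rac2, which limits their place in these orders.

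The ratio of Cybb to Cyba, the pair that forms the membrane core, was tested in each mouse on the log2 TPM scale with a pseudocount of 0.1. It was -5.83, -4.49, -6.20, -5.23 and -3.82 in CTL, -3.89, -4.86, -2.93 and -4.15 in CPZ and -2.45, -2.77, -2.98 and -2.54 in RCV. All RCV libraries lay above all CTL libraries, and CPZ overlapped with both. In geometric means, there was 0.0289 TPM of Cybb per TPM of Cyba in CTL, 0.0644 in CPZ and 0.156 in RCV. The ratio was 5.38-fold higher in RCV than in CTL (exact two-sided permutation test, p = 0.0159, the smallest that 4 against 5 allows) and 0.414-fold in CPZ against RCV (exact p = 0.0571, where 4 against 4 allows 0.0286). After adjustment over 6 ratio tests these came to 0.0952 and 0.114, so neither passed 0.05. CPZ against CTL was at 2.23-fold (exact p = 0.111, adjusted 0.133), and this difference turned negative with a pseudocount of 1, which exceeds the Cybb level in every CTL library.

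The ratio of Ncf1 to Ncf4, of organizer to adaptor, was -0.09, 1.39, 0.78, 2.16 and 1.20 on the log2 TPM scale in CTL, 3.03, 3.05, 2.51 and 1.66 in CPZ and 2.12, 0.79, 1.89 and 1.00 in RCV. CPZ overlapped with both other groups. Its mean was 2.78-fold higher in CPZ than in CTL (exact permutation p = 0.0317, adjusted 0.0952) and 2.17-fold higher in CPZ than in RCV (exact p = 0.0857, adjusted 0.129). RCV against CTL differed by 1.28-fold (exact p = 0.524). None of the 6 ratio tests passed 0.05 after adjustment, and the TPM of Ncf4 varied up to 2.83-fold for the same CPM.

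**Figure D2:**
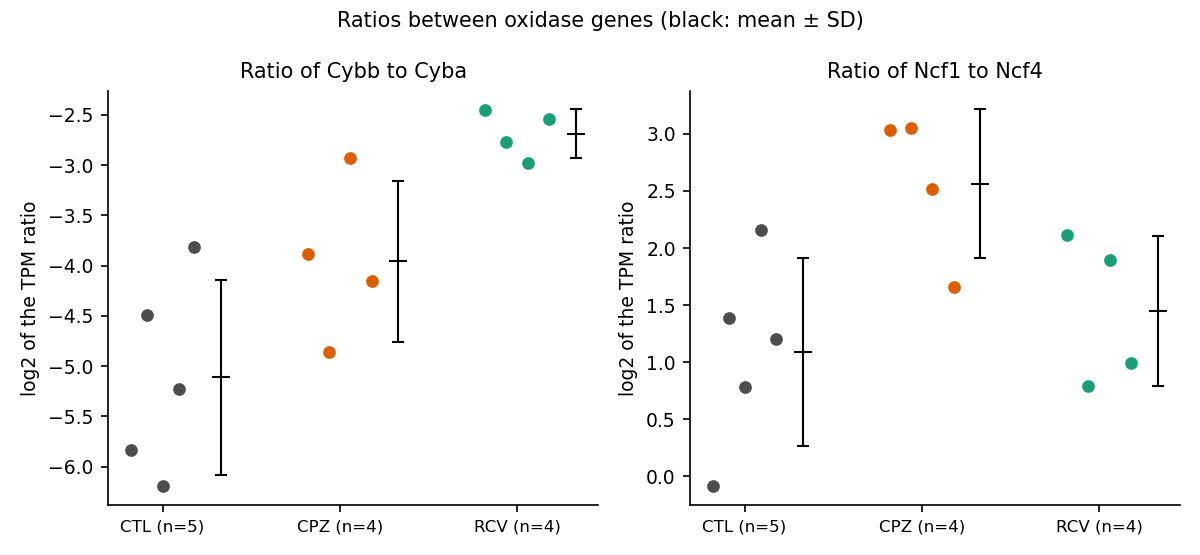
Log2 of the TPM ratio of Cybb to Cyba (left) and of Ncf1 to Ncf4 (right), 1 point per library, with the group mean ± SD in black. The RCV libraries hold the highest Cybb to Cyba ratios (-2.98 to -2.45) apart from CPZ replicate 3 at -2.93, whereas the Ncf1 to Ncf4 ratio is highest in CPZ replicates 1 and 2.

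The members were then set against microglial transcripts in general, since these rose as well. All 15 general microglia markers rose in CPZ against CTL (log2 1.72 to 3.68, median 2.65), and their summed level was 412 to 494 CPM in CTL, 1518 to 3216 CPM in CPZ and 646 to 910 CPM in RCV. In RCV against CTL, 1 of 15 was called, Ctss, a lysosomal protease (log2 1.24), and the median was 0.89. Of all genes tested, 7.66% were called higher in CPZ against CTL and 0.360% in RCV against CTL. The mean log2-CPM of the 15 markers was entered as an offset, so that a value of 0 means that a gene kept pace with them. Nearly every brain gene falls on this scale when microglial genes rise. Of all genes tested, 98.2% were called in either direction in CPZ against CTL, 89.5% in RCV against CTL and 95.8% in CPZ against RCV, so the adjusted p differs little from the raw p, and 0.414% and 0.387% were called higher in the first and second contrast.

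On this scale Cyba, Ncf1, Rac2 and Hvcn1 were not called in any of the 3 contrasts, with log2 differences of -0.32 to 0.40. Cybb was higher than the markers would give in CPZ against CTL (log2 1.27 ± 0.40, SE, adjusted p = 0.00158) and more so in RCV against CTL (log2 2.47 ± 0.40, adjusted p = 5.88e-07). It was lower in CPZ than in RCV on the same scale (log2 -1.20 ± 0.32, adjusted p = 0.000199). These 3 calls held without each library in turn and with 10 homeostatic microglia markers as the offset (log2 2.21, 3.12 and -0.90). Ncf4 fell behind the markers in CPZ against CTL (log2 -1.15 ± 0.47, adjusted p = 0.0143) and in CPZ against RCV (log2 -0.94 ± 0.47, adjusted p = 0.0455). The first of these was lost without CPZ replicate 1, CTL replicate 1 or CTL replicate 2 (adjusted p 0.0556 to 0.0716), and the second without CPZ replicate 1, 2 or 3 or RCV replicate 2, 3 or 4 (adjusted p 0.0512 to 0.162).

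The choice of markers mattered for the other members. The 10 homeostatic markers, such as P2ry12, a purinergic receptor of resting microglia, also rose in CPZ against CTL. All 10 were called, where 7.66% of all genes tested were called higher. They rose less than the general markers, with a median log2 fold change of 1.31. Against these, Cyba (log2 0.90, adjusted p = 0.00036), Ncf1 (0.65, adjusted p = 0.00381), Rac2 (1.16, adjusted p = 5.66e-05) and Hvcn1 (1.19, adjusted p = 3.87e-06) were all called in CPZ against CTL, where 14440 of 14985 genes were called in either direction on that scale, and Hvcn1 also in RCV against CTL (1.04, adjusted p = 0.021), where 118 genes were called. For Ncf4 the log2 difference in CPZ against CTL was -0.22 (adjusted p = 0.624).

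**Figure D3:**
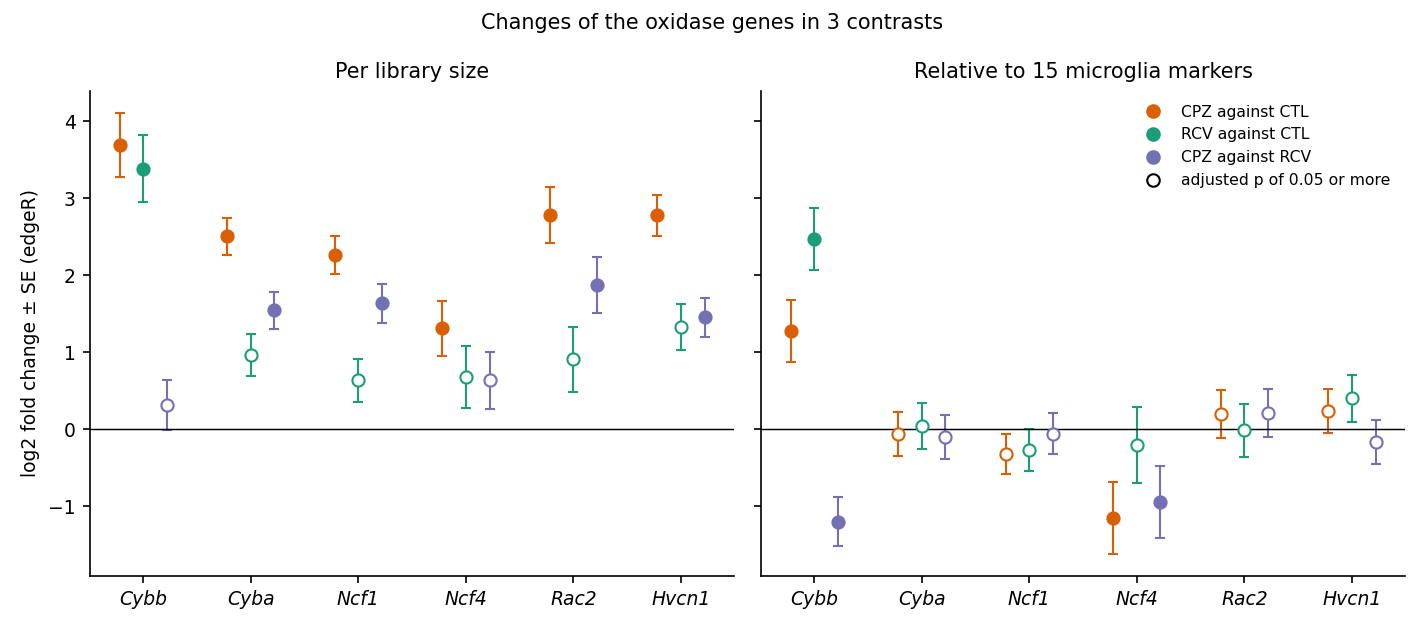
Log2 fold change ± SE of each member in the 3 contrasts, with counts scaled to library size (left) and relative to 15 general microglia markers (right), where filled points have an adjusted p under 0.05. On the left, Cybb in RCV against CTL (3.38) is far above the other members (0.63 to 1.33), and on the right it stays at 2.47 while Cyba, Ncf1, Rac2 and Hvcn1 lie near 0.

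How much of the CPZ change was left after recovery was expressed for each RCV mouse as its log2-CPM difference from the CTL mean divided by that of the CPZ mean, with no test. For Cybb the share was 0.897, 1.01, 0.624 and 1.04 in RCV replicates 1 to 4, with a mean of 0.892 ± 0.189 (SD, n = 4). For Cyba the share was 0.387 ± 0.111, for Ncf1 0.283 ± 0.092, for Rac2 0.291 ± 0.240 and for Hvcn1 0.455 ± 0.180. For Ncf4 it was 0.553 ± 0.302, with RCV replicate 4 at 0.981 and the others between 0.290 and 0.531. The 15 general microglia markers kept 0.360 ± 0.079 of their change. In every RCV mouse the share of Cybb was thus the largest among the 6 members and above that of the microglia markers. Among the 1148 genes that rose in CPZ against CTL, the median share was 0.283, and 11 genes (0.958%), Cybb among them, had a share at least as large as that of Cybb. On linear CPM the share was 0.788 for Cybb and 0.141 to 0.436 for the others.

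**Figure D4:**
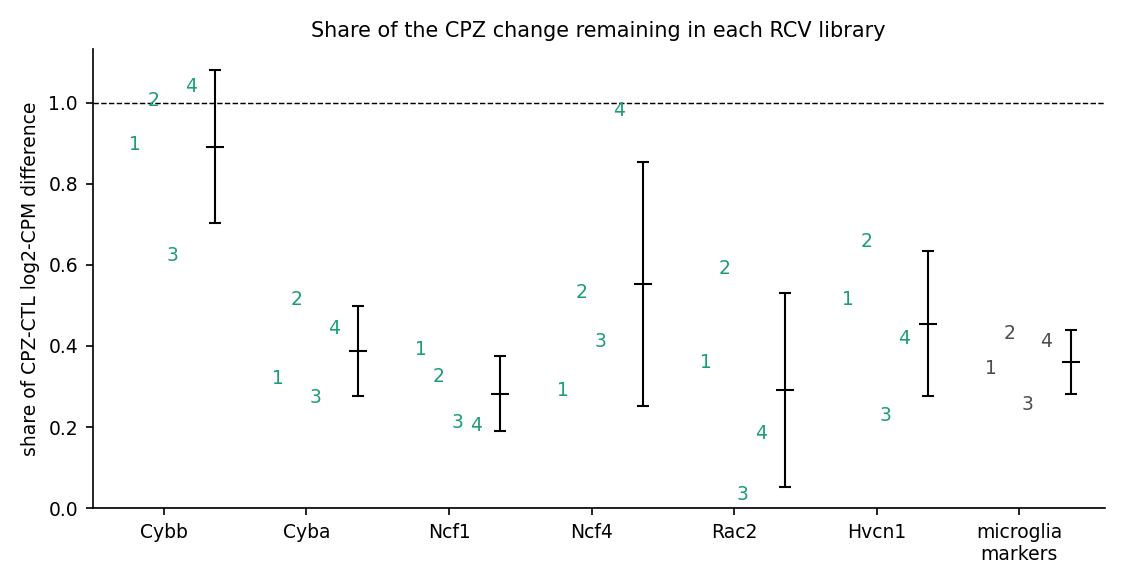
Share of the CPZ change remaining in each RCV library for the 6 members and for the mean of 15 general microglia markers, where 0 is the CTL mean and 1 (dashed) the CPZ mean. Digits are the RCV replicate numbers, and black marks give the mean ± SD, which is 0.892 ± 0.189 for Cybb and 0.360 ± 0.079 for the markers.

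Other genes tied to the oxidase were looked at next. Rac1, the GTPase of most other cells, Rap1a, a GTPase bound to the membrane core, and Cybc1, a chaperone of that core, were not called in any contrast, with log2 differences of -0.12 to 0.19. Of 9 genes of the other NADPH oxidases, Noxo1, an organizer of another oxidase, alone passed the filter and was not called (log2 -0.18 in CPZ against CTL). Nox4 had 0 to 1 counts in CTL libraries, 2 to 7 in CPZ libraries and 1 to 2 in RCV libraries. Mpo, the neutrophil enzyme that turns the products of the oxidase into hypochlorous acid, had at most 1 count in any library.

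Of 14 listed receptors that can trigger the oxidase, 12 were tested. In CPZ against CTL 11 of these rose, against 7.66% of all genes tested, from Tlr4, the receptor of bacterial endotoxin (log2 1.62 ± 0.33), to Clec7a, the fungal glucan receptor Dectin (log2 6.60 ± 0.41). Cd36, a scavenger receptor named here because it was the exception, was at -0.11 ± 0.39. In RCV against CTL, 2 of 12 were called, where 0.360% of all genes tested were called higher. They were Clec7a (log2 4.86 ± 0.48, adjusted p = 0.000613) and Tlr2, the receptor of bacterial lipopeptides (log2 1.76 ± 0.35, adjusted p = 0.0407). The median log2 fold change of the list was 3.35 in CPZ and 1.22 in RCV against CTL. Between CPZ and RCV, 10 of 12 were higher in CPZ by the test, against 5.13% of all genes tested.

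Of 20 genes that signal to the oxidase, 9 rose and 0 fell in CPZ against CTL, with a median of 0.51. Of all 14985 genes tested, 7.66% were called higher in that contrast and 374 genes lower. The largest log2 fold change was that of Dock2, an exchange factor for RAC (2.79 ± 0.22), and the smallest called one that of Vav2, another exchange factor (0.65 ± 0.12). None of the 20 was called in RCV against CTL by edgeR. Of all genes tested 0.360% were called higher there, so 0 of 20 is near that share. Of 6 regulators known to act on Cybb transcription, Spi1 (PU.1, log2 2.42 ± 0.29), Irf8 (2.77 ± 0.20) and Runx1 (2.64 ± 0.26) rose in CPZ against CTL. They were called higher in CPZ than in RCV too (1.58, 1.80 and 1.81). In RCV against CTL, Spi1 was at 0.84 ± 0.34 (adjusted p = 0.647), Irf8 at 0.97 ± 0.23 (adjusted p = 0.116) and Runx1 at 0.83 ± 0.30 (adjusted p = 0.534), none of them called. Irf1 (0.62 ± 0.22, adjusted p = 0.0849 in CPZ against CTL) and Irf2 (0.09 ± 0.09) were not called in any contrast, and Cebpe had at most 1 count in any library.

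Of 19 genes that remove oxidants, 3 rose in CPZ against CTL, where 7.66% of all genes tested did, from Prdx6, a peroxiredoxin (log2 0.37 ± 0.06), over Prdx4 (0.47 ± 0.12) to Hmox1, the heme-degrading enzyme (2.78 ± 0.26). In RCV against CTL, Prdx6 alone was called (0.30 ± 0.06, adjusted p = 0.0331), where 0.360% of all genes were called higher. The median log2 fold change of the 19 was 0.06 in CPZ and -0.04 in RCV against CTL. Among other enzymes that make oxidants, Xdh, xanthine dehydrogenase, was called in CPZ against CTL (0.63 ± 0.18, adjusted p = 0.0368), and Maob was not (0.21 ± 0.15).

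**Figure D5:**
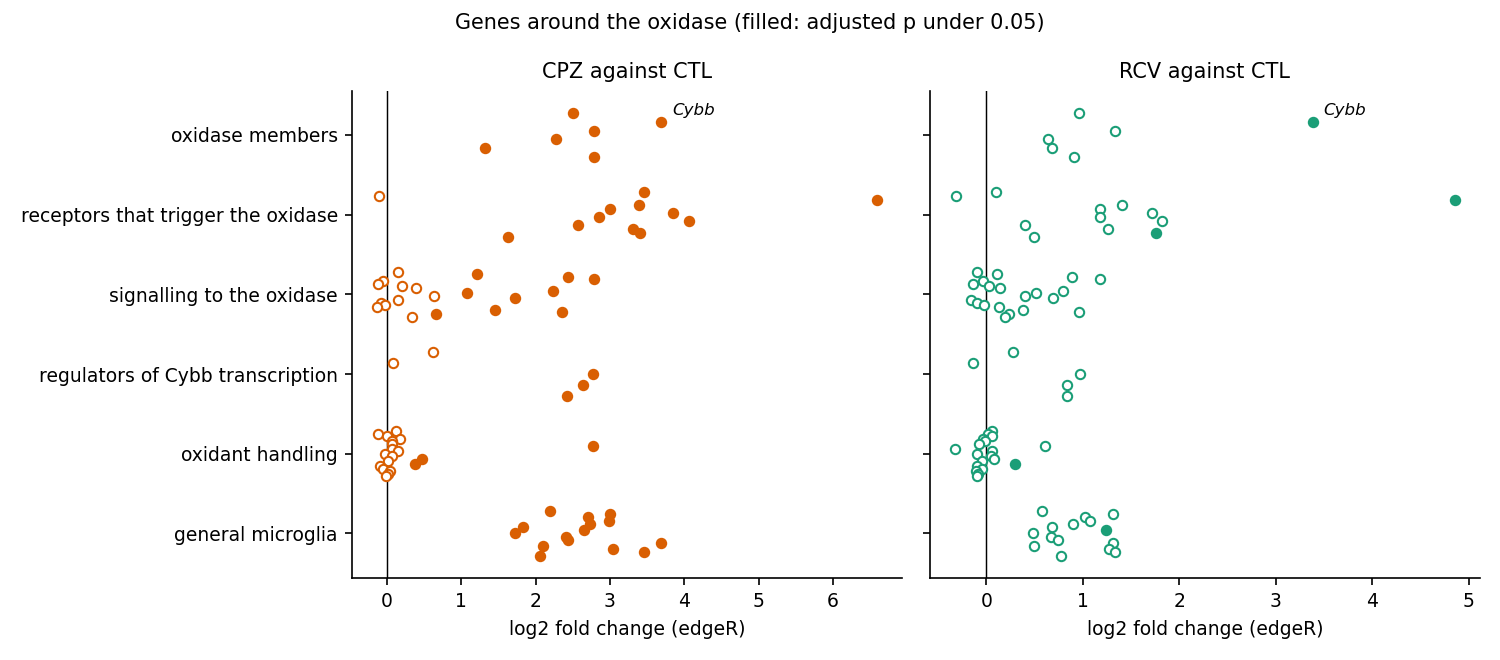
Log2 fold changes of the tested genes of 6 lists in CPZ against CTL (left) and RCV against CTL (right), 1 point per gene, filled where the adjusted p is under 0.05. On the right the filled points are Cybb (3.38), Clec7a (4.86), Tlr2 (1.76), Prdx6 (0.30) and Ctss (1.24).

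Other blood and border cells, only some of which use the oxidase, were looked for by their markers. The 10 neutrophil markers summed to 0 to 12.2 CPM in CTL, 0 to 0.646 CPM in CPZ and 0.648 to 16.6 CPM in RCV, none passed the filter, Elane was at 0 in every library and Ly6g had at most 1 count. S100a8 reached 25 counts in CTL replicate 2 and 35 in RCV replicate 1 and at most 3 elsewhere. CTL replicate 2 was also the highest CTL library for Rac2, Ncf1, Ncf4 and Hvcn1, and RCV replicate 1 the highest RCV library for Ncf1. Without these 2 libraries together, an alternative chosen after seeing the data, the same numbers of members were called, 6, 1 and 4 in the 3 contrasts, and Cybb stayed called in RCV against CTL (log2 3.51, adjusted p = 0.0335).

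Monocyte markers other than Fn1 and Vcan had at most 8.44 counts in any library. Fn1, fibronectin, which vessels and glia also make, rose in CPZ against CTL (log2 1.53 ± 0.23), and Vcan did not pass the test (0.09 ± 0.08). The 8 border macrophage markers summed to 4.62 to 11.2 CPM in CTL, 7.36 to 12.1 CPM in CPZ and 5.83 to 13.2 CPM in RCV, and of the 2 tested, Mrc1 (log2 0.71 ± 0.35, adjusted p = 0.26) and F13a1 (0.08 ± 0.36), none was called in CPZ against CTL. The B cell gene Ms4a1 had at most 1 count in any library and Cd79b had 0 to 2 counts in CTL, 2 to 11 in CPZ and 0 to 3 in RCV. Pax5, also of the B cell list, had 0 to 2 counts in CTL and in CPZ libraries and 0 to 32 in RCV libraries. Ighm, the immunoglobulin heavy chain, was at a log2 difference of 0.87 ± 0.30 (adjusted p = 0.104). The 7 T and NK cell markers summed to at most 1.62 CPM. Of 5 red blood cell genes, 0 were called in CPZ or RCV against CTL, where 1522 and 56 of all 14985 genes tested were called. Of these 5 genes, 2 were lower in CPZ than in RCV, as were 281 of all genes tested. The part of these cells in the members' changes was not tested.

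The genes whose profile over the 13 libraries was most like that of each member were found among the 14138 genes whose log2-CPM averaged 1 or more, by Pearson's r of log2-CPM. The points share the libraries and the group differences, so r is a description, and the r of deviations from the group means is given beside it. For Cybb they were Ly9, a SLAM family receptor (r = 0.951, within groups 0.672), Lyz2, lysozyme of myeloid cells (0.943, 0.598), and Clec7a (0.937, 0.538). All 3 were among the 56 genes called in RCV against CTL, at log2 fold changes of 3.91, 2.49 and 4.86. They were picked for a profile like that of Cybb, which was called there itself, so this is not a separate result. For Cyba they were Fcer1g, the Fc receptor gamma chain (0.987, 0.875), Man2b1, a lysosomal mannosidase (0.986, 0.940), and Apoe, apolipoprotein E (0.985, 0.918).

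For Ncf1 the closest genes were Runx1 (r = 0.992, within groups 0.957), Pabpc1, a poly(A) binding protein (0.989, 0.913), and Inpp5d, a phosphoinositide phosphatase (0.988, 0.941). For Rac2 they were Itgb5, an integrin subunit (0.982, 0.937), Tgfbr2, a TGF-beta receptor (0.978, 0.895), and Irf8 (0.978, 0.975). For Hvcn1 they were Naip2, an inflammasome sensor (0.991, 0.944), Ctss (0.981, 0.828) and Csf3r, the G-CSF receptor (0.981, 0.828). For Ncf4 they were Plcb2 (0.875, 0.648), Elf4 (0.863, 0.657) and Lpcat3 (0.861, 0.720). Of the 15 genes named for the members other than Cybb, 3 (Naip2, Ctss and Csf3r, all for Hvcn1) were called in RCV against CTL. Of all genes tested, 0.360% were called higher there. The members other than Cybb were not called there, with Hvcn1 at an adjusted p of 0.0884 by edgeR. The genes were picked for likeness to the members, so this count is not a separate result. Among the members themselves r was highest for Ncf1 and Rac2 (0.970, within groups 0.820), and Cybb had its highest r with Hvcn1 (0.870, within groups 0.649) and its lowest with Ncf4 (0.669, within groups -0.07).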

How the data were processed

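The authors deposited 2 tables with 1 column per library, one of unscaled estimated counts and one of TPM values, and STAR, RSEM and mm10 are named without versions in the submitters' processing notes. The paper names the RNASequest pipeline. The sources used here do not name the annotation release or the strand setting, and 54349 of 55401 identifiers matched GENCODE M21. Groups came from the labels. The study describes 13 samples, all used here, although its methods count fewer mice. Depth was 4605100 to 8197289 counts per library. Intervals and errors cover the spread between libraries, and few counts limit Cybb in CTL and Ncf4 throughout.

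Estimated counts were rounded (the 78 values of the members were already whole). The 92 spike-in rows held 0 counts. Genes were filtered with filterByExpr and fitted in edgeR 4.0.16 with TMM scaling and the robust quasi-likelihood test, with one mean per group, all 13 libraries and no covariate. Adjustment over 14985 genes followed Benjamini and Hochberg. SE is the absolute log2 fold change divided by the square root of F. Log2-CPM used a prior count of 2. The relative fit added the mean log2-CPM of the markers to the offsets. Ratios were tested by exact permutation (scipy 1.17.1), and limma 3.58.1 and DESeq2 1.42.0 served as alternatives, in R 4.3.3. Scripts were tested on simulated data. The chi-square per gene was 4.49 to 17.8 over the 22 pairs of libraries within groups, above sampling noise, so no library was taken as a repeat.

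The members and the lists were chosen with earlier results of these data known, so their direction is not independent evidence. Named are the members, the genes of the lists of other oxidase parts and of regulators, the largest and smallest called change where a list's count is broken down, its defining markers at 0, and the 3 genes most like each member. Some items are not reported here. Outside this rule, Prdx4, Cd36, Nox4, Tlr2, Mpo, Maob, S100a8, Fn1, Vcan, Mrc1 and F13a1 are named after their values were seen. So are Cd79b, Ighm, Ms4a1, Pax5, P2ry12 and the genes overlapping Ncf1 and Hvcn1. Alternatives were other scalings, tests, filters and pseudocounts, only the groups compared, the replicate number as a block, each library left out, and the 2 libraries with neutrophil transcripts left out.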

Additional observations from a re-analysis of the deposited data

Results flagged for a closer look

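Of 24 sets of values tested for an outlier (6 members and both ratios in 3 groups), 1 held a library far from the others, where chance gives about 1 in 20. The Rac2 level of CTL replicate 2 was 3.15 CPM, against 1.36 to 1.83 CPM in the other CTL libraries. This library also held 25 counts of S100a8, a neutrophil gene, and its part in the Rac2 level was not tested. Without this library Rac2 stayed called in CPZ against CTL.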

How the results depend on the processing

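Cybb stayed called in RCV against CTL under every test that included it. With at least 10 counts required in every library, Cybb, Ncf4 and Rac2 could not be tested, leaving 3 members called in CPZ against CTL and 0 in RCV against CTL (20 genes in all). A fit of only the groups compared could not test Ncf4 against CTL. The DESeq2 Wald test called 2 members in RCV against CTL (131 genes in all), limma-voom 1 (12 genes). On TPM values, limma called 2 members in CPZ against RCV, with Rac2 and Hvcn1 lost, and 508 genes in all at a pseudocount of 0.1, 599 at 1 and 487 at 1 with no filter. Without the filter it called 992 genes in CPZ against CTL and 22 in RCV against CTL. The causes were not tested.

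With the 2 libraries holding neutrophil transcripts left out, 23 genes were called in RCV against CTL and 652 in CPZ against RCV, and relative to the microglia markers 1 member was called in each of CPZ against CTL and CPZ against RCV. With the homeostatic markers the member counts were 5, 2 and 1 in place of 2, 1 and 2, and Cyba and Ncf1 changed sign in CPZ against CTL, to 0.90 and 0.65. On linear CPM the share remaining was 0.203 for Cyba, 0.141 for Ncf1 and 0.251 for Hvcn1, and on log2(TPM + 0.1) it was -0.166 for Rac2.

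Leaving out each library gave 1 to 2 members called in RCV against CTL, with 21 genes in all (without RCV replicate 2) to 87 (without CPZ replicate 3), 632 genes (without CPZ replicate 1) to 1170 in CPZ against RCV, and 1 to 2 members relative to the markers in CPZ against CTL and in CPZ against RCV. Between groups, libraries with the same replicate number gave r of deviations from the group means of -0.199 to 0.136. This r was over 0.1 in 3 of 12 pairs. Libraries with different numbers gave -0.205 to 0.265. With few libraries per group, this check cannot exclude a pairing. With the replicate number as a block, 5, 1 and 4 members and 1172, 42 and 755 genes were called, with Ncf4 lost in CPZ against CTL (log2 1.19, adjusted p = 0.079), and relative to the markers 2, 1 and 2 members.

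Depth limits the precision of Cybb in CTL (1 to 7 counts per library) and of Ncf4 (3 to 22 counts). DESeq2 size factors and no filter on counts left the member counts at 6, 1 and 4.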
